A study of Mus musculus with 6 samples.

Results

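The miR-15/16 family, with its relatives mir-195, mir-497 and mir-322, is a set of miRNAs that share the seed, bases 2 to 8 of the mature strand, but come from several places in the genome. Its members were taken by name from a table of 855 mouse miRNA precursors: mir-15a, mir-15b, mir-16-1, mir-16-2, mir-195a, mir-195b, mir-497 and mir-322, 8 precursors in all. The choice used names only and no measured value. Retinal small RNA was profiled by sequencing in mice 4 weeks old, on a mixed C57BL/6J and SJL background. The cKO group (Dicerfl/fl, iCre75+) carried floxed Dicer1 alleles and an iCre75 transgene, which expresses Cre recombinase in rod photoreceptors from a rhodopsin promoter, and the control group (Dicerfl/fl, iCre75-) consisted of littermates with the same floxed alleles and no transgene. There were 3 libraries per genotype, each from a pool of 6 retinas. The labels call them biological replicates without saying which mice entered which pool, so p values measure the spread between these pools. Cre acts in rods alone, so every other retinal cell type keeps Dicer1, and the whole-retina values mix deleted and intact cells.

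Dicer cuts miRNA hairpins to the short mature strand that is loaded into Argonaute proteins, and the seed at the start of that strand selects the target mRNAs. The miR-15/16 family is known for targets that drive the cell cycle and cell survival, such as cyclins D1 and E1 and Bcl2, and in many tissues it is linked to leaving the cell cycle. Because the members share the seed, they are expected to share many targets, while their promoters and host genes differ. The comparison asks how each member stood in the retinal small RNA pool with and without Dicer1 in rods, and whether members of one seed differed among themselves.

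The mature strands are shown because the finding turns on how alike they are. They are written 5′ to 3′ from RefSeq (GRCm38.p6), and capitals mark the seed. The mature strands of all 8 members were found in the RefSeq table by name.
miR-16-5p: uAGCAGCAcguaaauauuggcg
miR-195a-5p: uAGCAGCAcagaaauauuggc
miR-195b: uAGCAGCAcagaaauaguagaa
miR-15a-5p: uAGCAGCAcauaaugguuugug
miR-15b-5p: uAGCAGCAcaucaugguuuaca
miR-497a-5p: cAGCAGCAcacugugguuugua
miR-322-5p: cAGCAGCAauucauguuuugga
The 7 different sequences hold the same seed and differ only outside it. Counted from the 5′ end without gaps, miR-195a-5p differs from miR-16-5p at 2 of 21 positions and from miR-195b at 3 of 21. The strands of mir-15a and mir-15b differ at 4 of 22 positions, and miR-497a-5p differs from miR-16-5p at 11 of 22.

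The members lie at 5 places, given here in GRCm38.p6 (the authors' build, mm9, has other coordinates). Mature miR-15a-5p is at chr14:61632075-61632096 and miR-16-5p of mir-16-1 at chr14:61631936-61631957, both on the minus strand within the long noncoding RNA gene Dleu2. The other copy of miR-16-5p, that of mir-16-2, is at chr3:69009918-69009939 and miR-15b-5p at chr3:69009775-69009796, both on the plus strand in an intron of Smc4, which encodes a condensin subunit. Mature miR-497a-5p is at chr11:70234730-70234751 and miR-195a-5p at chr11:70235062-70235082, both on the plus strand, with 241 bases between the hairpins. The strand of mir-195b is at chr2:56785825-56785846 (plus) and miR-322-5p at chrX:53054306-53054327 (minus), and no other gene of the annotation used (GENCODE vM21) overlaps the hairpins of mir-497, mir-195a, mir-195b or mir-322. Of 1738 mature sequences in the RefSeq table, 11 hold this seed at bases 2 to 8. Those outside the family are miR-6342, miR-6353 and miR-6419, whose precursors were listed at 0 in every library.

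On the deposited values all 8 members rose in cKO retina, where 69.4% of the 461 tested precursors rose and 1.74% fell (limma, Benjamini-Hochberg adjusted p below 0.05). The values are RPKM, reads divided by the length of the precursor and by the total of the library, and precursors averaging 10 RPKM or more were tested on log2(RPKM + 1), a scale that understates changes of low precursors. All 8 members passed that filter, with control means of at least 18.8 RPKM. The median log2 fold change was 0.70 over the family and 0.74 over all tested precursors, and 5 of the 8 members lay below the median of the table. These counts take in both mir-16-1 and mir-16-2, which are not separate measurements. The background of all tested precursors also holds copies with equal values, such as mir-467a-2 and mir-467a-3. The members nonetheless spread widely, with mir-497 at 2.42-fold and mir-16-1 at 1.39-fold as the outermost values. Only 24.9% of tested precursors had a lower fold change than mir-16-1, against 93.3% for mir-497.

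**Figure D1:**
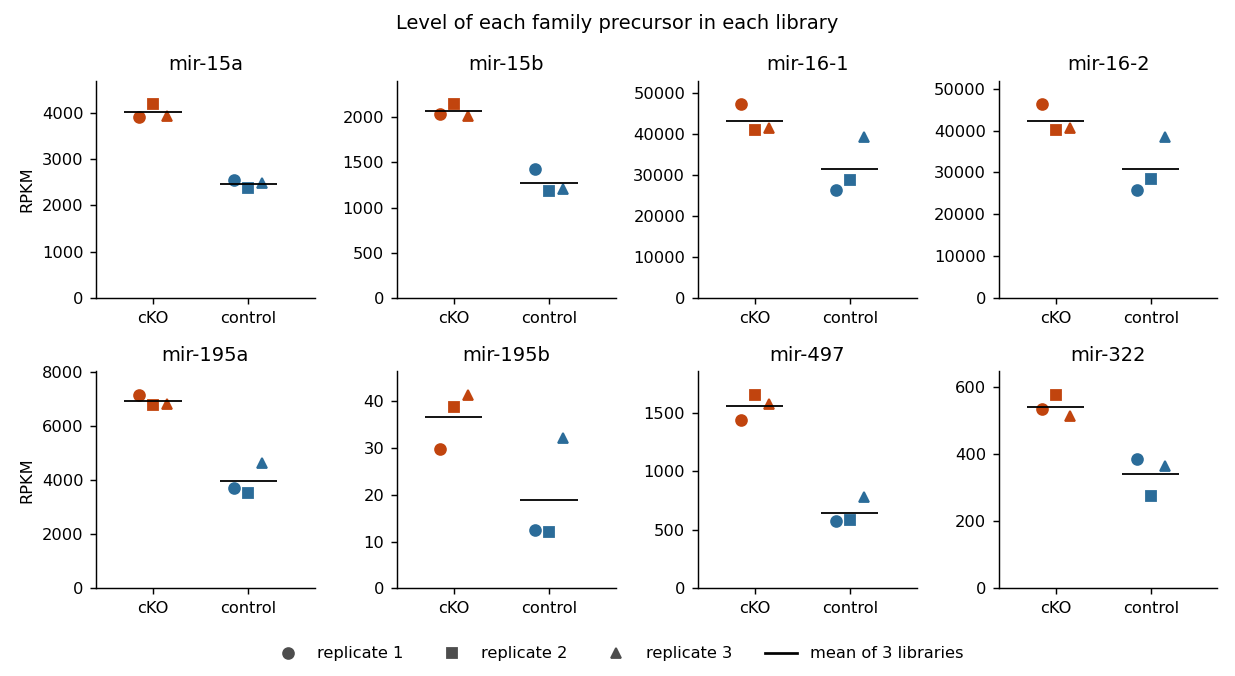
Level of each of the 8 family precursors (RPKM, vertical axis from 0, a separate scale in each panel) in 3 cKO and 3 control libraries; marker shapes are replicate numbers and lines are means. In 7 panels all cKO libraries lie above all control libraries, narrowly for mir-16-1 and mir-16-2, and in the panel of mir-195b the groups overlap.

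RPKM is relative to the library's own total, and the totals differ in makeup between the genotypes. The rod-enriched mir-182, a photoreceptor miRNA of the miR-183 cluster, took 27.7% to 33.8% of reads in cKO libraries and 53.2% to 57.4% in control libraries. Library totals, worked out from the values, ran from 5480940 to 6925715 reads in cKO and from 6894116 to 7478237 in control. In pooled retina fewer cells of a type and less RNA per cell cannot be told apart, and a rise in RPKM does not show more of a miRNA per retina. Each member is therefore also given with median-of-ratios scaling, which levels the libraries at their typical precursor and moves the median of all tested precursors to 0.014. Under it 1 of the 8 members, mir-497, rose and none fell, beside 2.17% of all tested precursors that rose and 9.98% that fell. Within the family, log2 differences between members of the same library were compared as well, since a library's total all but drops out of them.

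The most abundant member was miR-16, a regulator of cyclins that is made from both Dleu2 and Smc4. The precursor mir-16-1 stood at 47312, 40936 and 41465 RPKM in cKO 1 to 3, against 26319, 28925 and 39403 RPKM in control 1 to 3. The cKO libraries lay above the control libraries, but control 3 came close to them. The means were 43238 ± 3538 RPKM in cKO and 31549 ± 6926 RPKM in control (SD, n = 3 each), so the log2 fold change was 0.47 (limma, SE 0.16, adjusted p = 0.023). Relative to the median precursor this was 0.27 lower. With median-of-ratios scaling it stood at -0.26 (limma adjusted p = 0.24), and with totals that leave out mir-182 reads at -0.15 (limma adjusted p = 0.52). The call as deposited ended without cKO 1, control 1 or control 2 (limma adjusted p = 0.059 to 0.080, log2 fold change 0.35 to 0.42), and without control 3 the value was 0.64.

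The values of mir-16-1 and mir-16-2 are not separate measurements. Both loci give the same mature 5p strand, and whole reads worked out from the RPKM differed between them by 19 to 31 reads in cKO libraries, of 21136 to 30473 at mir-16-1, and by 10 to 23 reads in control libraries, of 18304 to 25876. The difference was 0.072% to 0.102% of the reads at mir-16-1 in cKO and 0.054% to 0.089% in control, with mir-16-1 the higher in all 6 libraries. Reads that fit both loci were thus listed at both, and the table does not tell how much miR-16 came from Dleu2 or from Smc4. The opposite strands of the hairpins differ between the loci and are shown because reads of that kind could set the rows apart; reads over the loop or the flanks could as well, and which they were was not tested. Capitals again mark bases 2 to 8, which are not the family seed.
miR-16-1-3p: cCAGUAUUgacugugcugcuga
miR-16-2-3p: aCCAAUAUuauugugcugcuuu

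The neighbour of mir-16-1 in Dleu2, mir-15a, is known with it from deletions in chronic lymphocytic leukaemia in humans. It held 3907, 4180 and 3923 RPKM in cKO 1 to 3, against 2549, 2374 and 2478 RPKM in control 1 to 3. These were the tightest control values of the family, with a coefficient of variation of 3.56%, against 21.95% for mir-16-1. The log2 fold change was 0.70 (limma, SE 0.13, adjusted p = 0.0011), 0.042 below the median of all tested precursors. The neighbour of mir-16-2 in Smc4, mir-15b, held 2033, 2142 and 2016 RPKM in cKO 1 to 3, against 1425, 1185 and 1208 RPKM in control 1 to 3. Its groups were also apart, with a log2 fold change of 0.70 (limma, SE 0.14, adjusted p = 0.0017). With median-of-ratios scaling mir-15a stood at -0.037 and mir-15b at -0.034 (limma adjusted p = 0.90 for each). Although mir-15a and mir-15b come from different chromosomes and host genes, their fold changes as deposited differed by less than their standard errors.

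The chromosome 11 pair, mir-497 and mir-195a, had the highest fold changes of the family apart from the scarce mir-195b. In mice this cluster is known from heart and muscle, where it is linked to leaving the cell cycle. The precursor mir-497 held 1439, 1656 and 1573 RPKM in cKO 1 to 3, against 579, 584 and 777 RPKM in control 1 to 3. Every cKO library held clearly more than every control library, and control 3 was again the highest control. In whole reads these were 837, 962 and 724 in cKO, against 364, 338 and 461 in control, and the exact Poisson 95% interval of control 3, the highest control, was 420 to 505 reads (counting error only). The means were 1556 ± 110 RPKM in cKO and 647 ± 113 RPKM in control (SD, n = 3 each), so the log2 fold change was 1.28 (limma, SE 0.16, adjusted p = 3.1e-04). Relative to the median precursor this was 0.54 higher. With median-of-ratios scaling mir-497 rose by 0.54 (limma, SE 0.13, adjusted p = 0.021) and with totals that leave out mir-182 reads by 0.65 (limma adjusted p = 0.017). The call ended under quantile normalization, at 0.48 (limma adjusted p = 0.054).

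Its neighbour mir-195a held 7163, 6794 and 6809 RPKM in cKO 1 to 3, against 3717, 3509 and 4651 RPKM in control 1 to 3. The groups did not overlap, and the cKO libraries had a coefficient of variation of 3.01%. The log2 fold change was 0.82 (limma, SE 0.14, adjusted p = 0.0010), which is 0.076 above the median of all tested precursors, and with median-of-ratios scaling it was 0.081 (limma adjusted p = 0.78). The strand of miR-195a-5p differs from miR-16-5p at only 2 positions, but mir-195a held 15.3% to 16.8% of the reads of mir-16-1 in cKO libraries and 11.9% to 14.3% in control libraries. Most reads at mir-16-1 were therefore not listed at mir-195a as well. How many of the reads at mir-195a are miR-16 reads with mismatches was not tested.

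The remaining members were scarce. The precursor mir-322, the mouse counterpart of human miR-424 and known from differentiating muscle, held 533, 577 and 515 RPKM in cKO 1 to 3, against 384, 276 and 364 RPKM in control 1 to 3. The groups were apart, and the log2 fold change was 0.68 (limma, SE 0.17, adjusted p = 0.0050), against -0.057 with median-of-ratios scaling (limma adjusted p = 0.88). The chromosome 2 precursor mir-195b held 29.8, 38.8 and 41.4 RPKM in cKO 1 to 3, against 12.4, 12.0 and 32.1 RPKM in control 1 to 3. These are only 20, 26 and 22 reads in cKO libraries, against 9, 8 and 22 in control libraries, and control 3 overlapped the cKO group. Its log2 fold change of 1.06 (limma, SE 0.40, adjusted p = 0.036) lost its call without cKO 2, cKO 3, control 1 or control 2 (limma adjusted p = 0.082 to 0.12, log2 fold change 0.82 to 1.01) and was 1.50 without control 3. Reads at mir-195b came to 0.429% to 0.627% of those at mir-195a in cKO and 0.344% to 0.713% in control. How many of them are miR-195a reads with a mismatch was not tested.

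In 7 of the 8 members all cKO libraries lay above all control libraries, beside 71.6% of all tested precursors. By an exact permutation test over the libraries, two-sided, p was 0.1 for each of those 7, which is the lowest that 3 against 3 can give, and 0.2 for mir-195b.

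**Figure D2:**
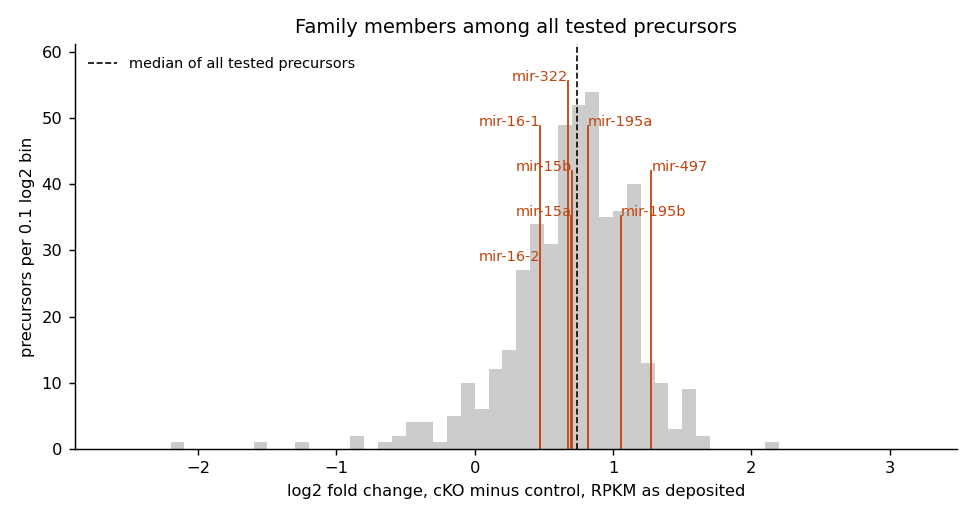
Histogram of log2 fold changes (cKO minus control, RPKM as deposited, horizontal axis) of the 461 tested precursors in bins of 0.1 log2 units, with the 8 family members as labelled lines and the median of all precursors, 0.74, as a dashed line. The members mir-15a, mir-15b, mir-322 and mir-195a lie beside the median, with mir-16-1 and mir-16-2 on its left at 0.47 and mir-195b and mir-497 on its right at 1.06 and 1.28.

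The order of the members by RPKM was the same in both genotypes: mir-16-1 and mir-16-2, then mir-195a, mir-15a, mir-15b, mir-497, mir-322 and mir-195b. Apart from the copies of miR-16, no neighbours in that order overlapped within a genotype. RPKM divides by the precursor, and that of mir-15b, at 64 bases, is shorter than that of mir-497, at 84 bases, while both mature strands have 22 bases. Per 1000000 library reads, mir-497 held 121, 139 and 132 reads in cKO 1 to 3 and mir-15b held 130, 137 and 129. On that scale the levels of mir-497 and mir-15b overlapped in cKO retina. In control 1 to 3 mir-497 held 48.7, 49.0 and 65.3 reads on this scale and mir-15b held 91.2, 75.9 and 77.3, and mir-497 was the lower in each of them.

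With miR-16 counted once, the family took 0.513% to 0.571% of library reads in cKO and 0.319% to 0.449% in control. Of these family reads, mir-16-1 made up 74.2% to 77.1% in cKO and 76.8% to 81.6% in control, which overlap. The share of mir-195a was 11.8% to 12.5% in cKO and 9.74% to 11.0% in control, and that of mir-497 was 2.12% to 2.71% in cKO and 1.45% to 1.53% in control. Within the family mir-497 and mir-195a each thus took a higher share in every cKO library than in any control library. The share of mir-15a overlapped, at 5.75% to 6.84% in cKO and 4.64% to 6.71% in control. These shares depend on the reads of miR-16, were not tested and have no background over all precursors.

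The pair mir-497 and mir-16-1 was set against each other within each library, a pair proposed with earlier results of these data known. The difference of log2(RPKM + 1), mir-497 minus mir-16-1, was -5.04, -4.63 and -4.72 in cKO 1 to 3, against -5.50, -5.63 and -5.66 in control 1 to 3. The groups were apart, with cKO 1 nearest to the control libraries. Put as a ratio of RPKM, mir-497 stood at 3.63% ± 0.523 of mir-16-1 in cKO and at 2.06% ± 0.121 in control (SD, n = 3 each). The difference between genotypes was 0.80 on the log2 scale (SE 0.19; limma over all precursors relative to mir-16-1, adjusted p = 0.048, beside 1.96% of 460 precursors that rose and 2.17% that fell in that fit; exact permutation test, two-sided, p = 0.1, as low as the design allows). Its size was 0.72 to 0.92 when each library was left out in turn, but the call ended without any library but cKO 1 (limma adjusted p = 0.058 to 0.26). The call also ended without a trend in the variance model (limma adjusted p = 0.093) and, by a small margin, without a filter on low values (limma adjusted p = 0.054), and under quantile normalization the difference was 0.40 (limma adjusted p = 0.53).

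**Figure D3:**
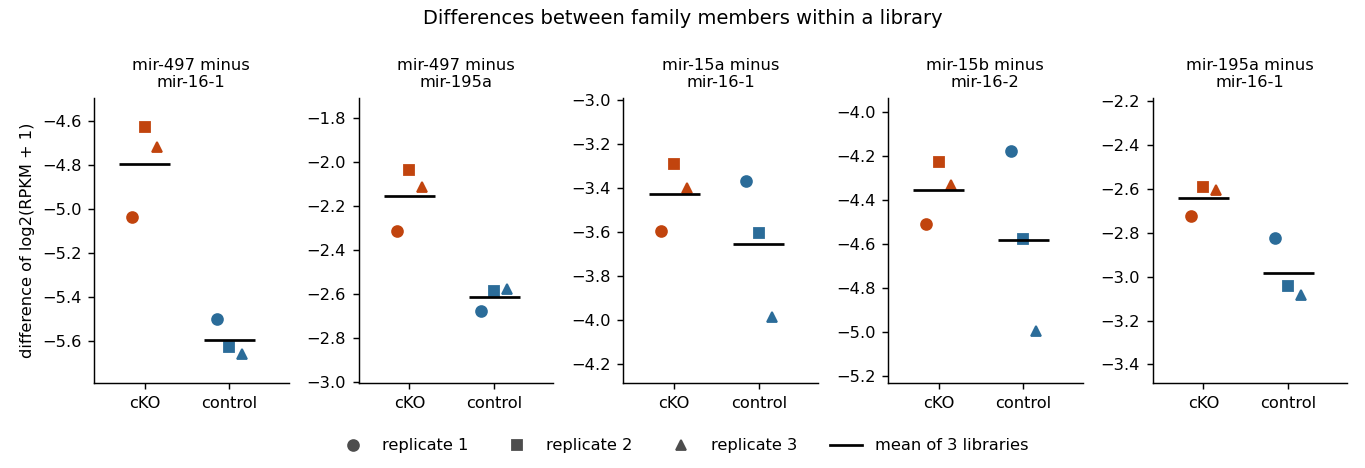
Difference of log2(RPKM + 1) between 2 family members of the same library (vertical axes of equal length) for 5 pairs, in 3 cKO and 3 control libraries; lines are means. The values of mir-497 minus mir-16-1 run from -5.04 to -4.63 in cKO and from -5.66 to -5.50 in control, while mir-15a minus mir-16-1 and mir-15b minus mir-16-2 overlap between the groups.

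Another 4 within-library differences were computed, 3 of them between cluster neighbours. Since mir-16-1 and mir-16-2 list nearly the same reads, differences from either are not specific to Dleu2 or Smc4. On chromosome 11, mir-497 minus mir-195a was -2.31, -2.04 and -2.11 in cKO 1 to 3, against -2.68, -2.59 and -2.58 in control 1 to 3. All cKO libraries again lay above all control libraries, yet the difference of 0.46 (SE 0.17) did not pass (limma relative to mir-195a, adjusted p = 0.13, beside 0.652% of precursors that rose and 7.17% that fell; exact two-sided permutation p = 0.1). This comparison was chosen after the data were seen. The difference of mir-195a minus mir-16-1 was 0.34 higher in cKO (limma, SE 0.18, adjusted p = 0.26; exact two-sided permutation p = 0.1). For mir-15a minus mir-16-1 the values were -3.60, -3.29 and -3.40 in cKO 1 to 3, against -3.37, -3.61 and -3.99 in control 1 to 3. The groups overlapped, and the difference of 0.22 (SE 0.21) did not pass (limma adjusted p = 0.51; exact two-sided permutation p = 0.4). Likewise mir-15b minus mir-16-2 differed by 0.23 (limma, SE 0.23, adjusted p = 0.53, and exact two-sided permutation p = 0.5). Relative to mir-16-1, neither mir-322, at 0.20 (limma, SE 0.22, adjusted p = 0.55), nor mir-195b, at 0.58 (limma, SE 0.36, adjusted p = 0.32), passed. With standard errors of this size, differences of the order of that of mir-195a could not be told from 0.

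**Figure D4:**
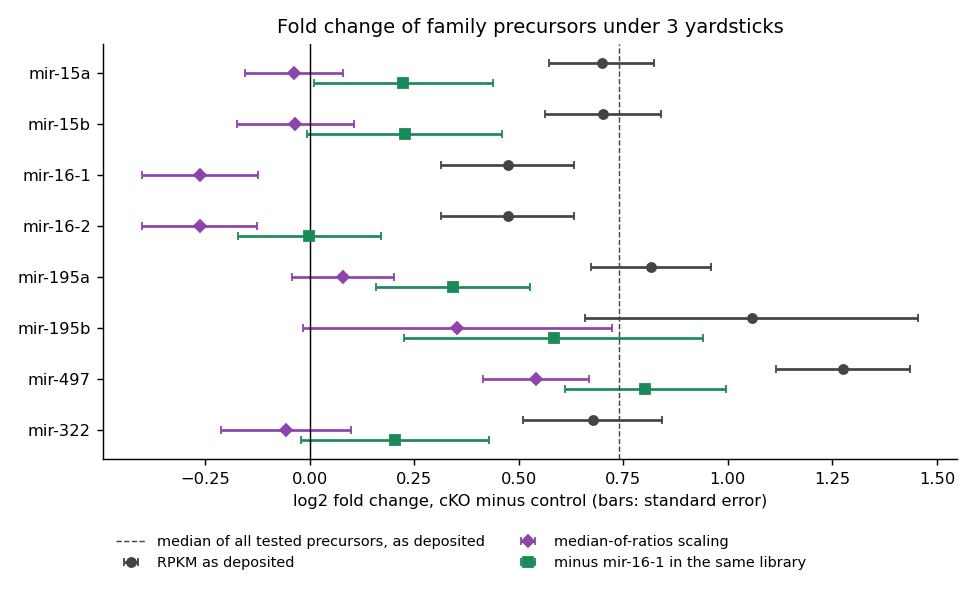
Log2 fold change of each family member, cKO minus control (horizontal axis), as deposited (circles), with median-of-ratios scaling (diamonds) and relative to mir-16-1 of the same library (squares; no square for mir-16-1 itself); bars are standard errors, and the dashed line is the median of all tested precursors as deposited, 0.74. The member mir-497 is highest on each of the 3 scales, at 1.28, 0.54 and 0.80.

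Control 3 was the highest control library for mir-16-1, mir-16-2, mir-195a, mir-195b and mir-497, while mir-15a, mir-15b and mir-322 were highest in control 1. The rows of mir-15a and mir-16-1 thus did not move together among control libraries. Control 3 held 39403 RPKM of mir-16-1 and control 1 held 26319, whereas for mir-15a they held 2478 and 2549 RPKM. Since the row of mir-16-1 also lists reads that fit mir-16-2, these values do not show how the neighbours in Dleu2 moved. Among 299 other precursors that averaged 100 RPKM or more, those whose centred log2 values over the 6 libraries lay nearest to mir-497 were mir-149 (Euclidean distance 0.20), mir-382 of the imprinted Dlk1-Dio3 region (0.20) and mir-193a (0.23). Nearest to mir-16-1 were mir-199a-1, mir-199a-2 and mir-199b (0.29 to 0.30), miRNAs of mesenchymal cells that share mature sequence and are not separate measurements. Their log2 fold changes were 0.45 to 0.46.

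Of the wider group around miR-15 and miR-107, in which mir-503, mir-103 and mir-107 have a related start, 3 of 3 tested precursors rose as deposited (69.4% of all tested precursors rose). These miRNAs are shown because the family seed lies 1 base earlier in miR-103 and miR-107 and ends in another base in miR-503. Capitals mark bases 2 to 8.
miR-103-3p: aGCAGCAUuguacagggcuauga
miR-107-3p: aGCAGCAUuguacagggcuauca
miR-503-5p: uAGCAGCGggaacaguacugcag
The precursor mir-103-1 stood at 17642, 20112 and 20110 RPKM in cKO 1 to 3, against 12268, 10821 and 11077 RPKM in control 1 to 3, a log2 fold change of 0.76 (limma, SE 0.12, adjusted p = 8.6e-04), and at 0.024 with median-of-ratios scaling. The strands of miR-103 and miR-107, which target Dicer1 mRNA itself, differ at 1 of 23 positions, and mir-107 held 96.3% to 97.0% as many reads as mir-103-1 in cKO and 96.0% to 96.7% in control. Their rows therefore rest largely on the same reads, and mir-107 stood at the same log2 fold change of 0.76. The other tested precursor, mir-103-2, gives the same mature strand as mir-103-1 and held nearly the same reads. The 3 that rose are thus not separate measurements.

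On the X chromosome, the 6 listed neighbours of mir-322 include mir-503, whose hairpin lies 200 bases away. Of the 5 tested, mir-351, mir-542, mir-450a-1 and mir-450a-2 rose as deposited, where 69.4% of all tested precursors rose, and mir-450b stood at 0.78 (limma adjusted p = 0.073). Their median log2 fold change was 0.87, against 0.74 over all tested precursors, and none passed with median-of-ratios scaling. The rows of mir-450a-1 and mir-450a-2 held nearly equal reads and may not be separate measurements. These were 15 to 29 and 15 to 27 reads in cKO libraries, against 11 to 14 and 12 to 14 in control libraries. The precursor mir-542 stood at 86.2 ± 11.0 RPKM in cKO and 40.3 ± 11.8 RPKM in control (SD, n = 3 each; log2 fold change 1.11, limma, SE 0.26, adjusted p = 0.0040). For mir-351 the level was 789, 1565 and 1592 RPKM in cKO 1 to 3, against 654, 673 and 774 RPKM in control 1 to 3, so that cKO 1 lay next to the control libraries. The precursor mir-503 was below the filter, with 7, 7 and 4 reads in cKO 1 to 3, against 3, 1 and 1 reads in control 1 to 3.

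Marker miRNAs of rods and of other cells were read from the same fits. In those fits 69.4% of all tested precursors rose as deposited and 2.17% with median-of-ratios scaling. Of the rod photoreceptor miRNAs, mir-182 and mir-96 fell and mir-183 did not pass as deposited, all 3 fell with median-of-ratios scaling, and their sum was 4037700 to 4911500 RPKM in cKO and 7568200 to 7894200 RPKM in control. Vascular miRNAs rose in 5 of 5 tested precursors as deposited (41860 to 55548 RPKM summed in cKO, 19236 to 35786 in control). With median-of-ratios scaling 1 of the 5 rose, the endothelial mir-126 at a log2 fold change of 0.63, while the other vascular precursors ran from -0.28 to 0.038 and the list had a median of -0.095. As deposited, counts of those that rose were 2 of 3 for red cells and 2 of 4 for leukocytes and microglia. For muscle they were 2 of 4, the copies mir-133a-1 and mir-133a-2 at 0.65 each. Of the list for pigment epithelium, mir-204 and mir-211, 2 of 2 rose, and none of the 3 copies of the neuronal mir-124 passed. With median-of-ratios scaling no precursor of these lists rose, and the 3 copies of mir-124 fell, each by 0.81 on the log2 scale (limma adjusted p = 0.0046 to 0.0047). The summed levels in cKO and control were 26667 to 31080 and 16553 to 19359 RPKM for the red cell list, 4056 to 5976 and 2257 to 2961 RPKM for leukocytes and microglia, and 1566 to 2451 and 930 to 1622 RPKM for muscle. They were 1197400 to 1475700 and 655310 to 758330 RPKM for mir-204 and mir-211, and 222200 to 265610 and 203590 to 291230 RPKM for mir-124. Which cells the reads of mir-204, mir-211 and mir-124 came from was not tested. No marker in these lists was at 0 in every library. The part of such cells in the values of mir-497 was not tested.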

How the data were processed

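The authors deposited RPKM values for miRNA precursors, 1 column per library. Per the labels' protocols, each library used 1 µg of RNA pooled from 6 retinas and 11 PCR rounds, and the 6 libraries shared a sequencing run. Bowtie and mm9 are named in the submitters' processing notes, but how multiply aligned reads were handled was not given in the sources used here. RPKM multiplied by precursor length fell on whole steps, equal within a library (100.0% of 3174 values above 0 with an annotated length, tolerance 0.01 reads), which gave whole reads and totals. The sum over precursors exceeded the library total, since shared reads are listed repeatedly. It was 1.77 to 1.86 times the total in cKO libraries and 1.55 to 1.56 times in control libraries. At 75 bases 1 read is worth 1.78 to 2.43 RPKM.

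The test was limma 3.58.1 in R 4.3.3 (eBayes, trended variance), fitted to log2(RPKM + 1) for cKO minus control, two-sided, over precursors averaging 10 RPKM or more, p values adjusted by Benjamini and Hochberg over all of them with a threshold of 0.05. The fit was also run on simulated reads with known changes, in which mir-182 and mir-16-1 were held unchanged. That run does not cover a shift in library makeup such as that of mir-182 here. Differences between members used the same fit after subtracting mir-16-1 or mir-195a of the same library. Poisson intervals came from scipy 1.17.1 and figures from matplotlib 3.10.9. Alternatives covered pseudocount, filter, scaling, variance model, library weights, voom on whole reads, merged copies of mir-16, the replicate number as a block and each library left out. The members, lists and pair were chosen with earlier results of these data known. Named were all members, the 3 precursors nearest in profile to mir-497 and to mir-16-1, and the listed relatives and markers. The genotype labels were not checked against Dicer1 mRNA, which was not analysed here.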

Additional observations from a re-analysis of the deposited data

How the results depend on the processing

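Leaving out each library in turn kept the sign of every member: the log2 fold change was 0.67 to 0.72 for mir-15a, 0.65 to 0.79 for mir-15b, 0.35 to 0.64 for mir-16-1 and for mir-16-2, 0.73 to 0.94 for mir-195a, 0.82 to 1.50 for mir-195b, 1.20 to 1.42 for mir-497 and 0.53 to 0.77 for mir-322. The difference of mir-497 minus mir-16-1 ran from 0.72 to 0.92. At least 252 precursors rose in each of these fits and 4 to 12 fell, against 320 and 8 with all libraries. Scaling moved the calls most. With median-of-ratios scaling 10 precursors rose and 46 fell, under quantile normalization 12 and 29, and with totals without mir-182 reads 20 and 36; 4 fell among those averaging 100 RPKM or more and 14 with library weights. Median-of-ratios scaling turned mir-15a to -0.037, mir-15b to -0.034, mir-16-1 and mir-16-2 to -0.26 and mir-322 to -0.057, and ended the calls of mir-195a at 0.081 and mir-195b at 0.35. Quantile normalization turned mir-15b to -0.017 and mir-322 to -0.13 and ended the calls of mir-15a at 0.27, mir-16-1 at 0.079, mir-16-2 at 0.023, mir-195a at 0.097, mir-195b at 0.37 and mir-497 at 0.48. Totals without mir-182 reads turned mir-16-1 and mir-16-2 to -0.15 and ended the calls of mir-15a at 0.073, mir-15b at 0.077, mir-195a at 0.19, mir-195b at 0.47 and mir-322 at 0.054. Without a variance trend mir-16-1 and mir-16-2 kept 0.47 but did not pass (limma adjusted p = 0.055). For mir-497 minus mir-16-1 the call ended at 0.80 without a filter, without a trend and with the replicate block (limma adjusted p = 0.10), at 0.40 under quantile normalization and at 0.46 with mir-195a as partner. The block ended no call of a member. Same-numbered libraries deviated together with correlations of 0.19, 0.26 and 0.0093, so the numbers were not taken as pairs, and 2 of the 3 correlated best with their own number. With mir-16-2 as partner, pseudocounts of 0.5 and 10 RPKM, merged copies of mir-16 and voom the difference kept its call. The row of mir-195b rests on 20 to 26 reads in cKO libraries and 8 to 22 in control libraries. The cause of these changes, those of mir-195b included, was not tested.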
